A study of Mus musculus with 9 samples.

Results

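The comparison concerned 6 of 9 testis libraries, the most advanced (late) and the middle testis of each of 3 Piwil4 genotypes, with 3 libraries a side. Each library is called a testis here, although the sources used do not say whether it came from 1 mouse or a pool. All mice were 3 weeks old and carried no copy (wild-type), 1 copy (Piwil4 WT/R264W) or 2 copies (Piwil4 R264W/R264W) of the R264W allele, and no other allele or treatment is given for any group. The allele was made by CRISPR-Cas9 editing of C57BL/6 zygotes and changes 1 arginine to tryptophan in PIWIL4, which guides the silencing of transposons in fetal male germ cells. Whole testes were used, so each library holds RNA of germ cells and of somatic cells. The libraries were ranked within each genotype and chosen by the mean log2 CPM (counts scaled to library size with TMM factors) of 19 round spermatid genes, referred to here as the score. Since the same expression values chose the testes, no p-value is given, and sizes, counts and the order of change are a description of these 6 testes.

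Male germ cells of the mouse begin meiosis in a first wave that is nearly synchronous, so the most advanced cell type of a young testis depends on its exact age and pace. After the meiotic divisions the haploid round spermatid builds an acrosome and a flagellum, and it later silences its genome as histones are exchanged for transition proteins and then for protamines. Many spermatid mRNAs are made well before they are translated, and many of their promoters are known to be bound by the factor CREM at cAMP response elements. In a whole testis, more spermatids and more RNA per spermatid cannot be told apart.

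The score of the late testes was 6.38 in wild-type (replicate 1), 5.61 in Piwil4 WT/R264W (replicate 1) and 6.24 in Piwil4 R264W/R264W (replicate 3) mice. The middle testes had 4.12, 5.0 and 4.92, each replicate 2 of its genotype, and the early testes, shown only as values, had 3.26, 2.74 and 4.17. The step from middle to late was therefore 2.26 in the wild-type pair, 0.62 in the Piwil4 WT/R264W pair and 1.32 in the Piwil4 R264W/R264W pair. Middle did not mean the same stage in each genotype, since the middle wild-type testis (4.12) lay beside the early Piwil4 R264W/R264W testis (4.17). Estimated counts summed to 18 to 24.3 M per library, so that 1 count was 0.0407 to 0.0572 CPM. Of 22337 genes in the table, 15612 had enough counts in the 6 libraries to be fitted. Below, values of 3 testes stand in the order wild-type, Piwil4 WT/R264W, Piwil4 R264W/R264W.

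Genes with large differences in all 3 pairs were mostly higher in late testes. A gene was counted as higher, or as lower, when its CPM differed by more than 2-fold in the same direction in all 3 genotype pairs. By this rule 326 genes (2.09% of those fitted) were higher in late testes and 1 gene (0.00641%) was lower. The number of lower genes was 13, 17 or 30 when the wild-type, Piwil4 WT/R264W or Piwil4 R264W/R264W pair was left out, and 26 when genes of low counts were kept. Without regard to size, 2408 genes had a positive and 1956 a negative log2 ratio in all 3 pairs. With a smaller limit of 1.5-fold in all 3 pairs, 609 genes (3.90%) were higher and 25 (0.160%) were lower. Within single pairs the numbers over 2-fold higher and lower were 1461 and 321 in wild-type, 569 and 308 in Piwil4 WT/R264W, and 975 and 145 in Piwil4 R264W/R264W testes. The pair with the widest score step thus had the most genes higher, and the pair with the narrowest had the fewest. The median log2 ratio over all genes fitted was 0.00, 0.00 and 0.01.

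The 326 higher genes differed in size between pairs. Late over middle, their median fold was 13.1 in the wild-type, 3.79 in the Piwil4 WT/R264W and 4.31 in the Piwil4 R264W/R264W pair, and 298 had their largest ratio in the wild-type pair. The median fitted log2 fold change was 2.62. Of the 326, 34 were more than 8-fold higher in every pair, and in 325 the lowest late testis lay above the highest middle testis. The genes were chosen by these same ratios, so this separation adds no support. Its share over all genes fitted was not counted. The leave-out of the Piwil4 WT/R264W pair moved the count most, to 840 genes higher in both other pairs. The 514 of these genes that were not over 2-fold in the Piwil4 WT/R264W pair had a median of 1.86 CPM in the early Piwil4 WT/R264W testis, against 0.210 CPM for the 326.

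**Figure D1:**
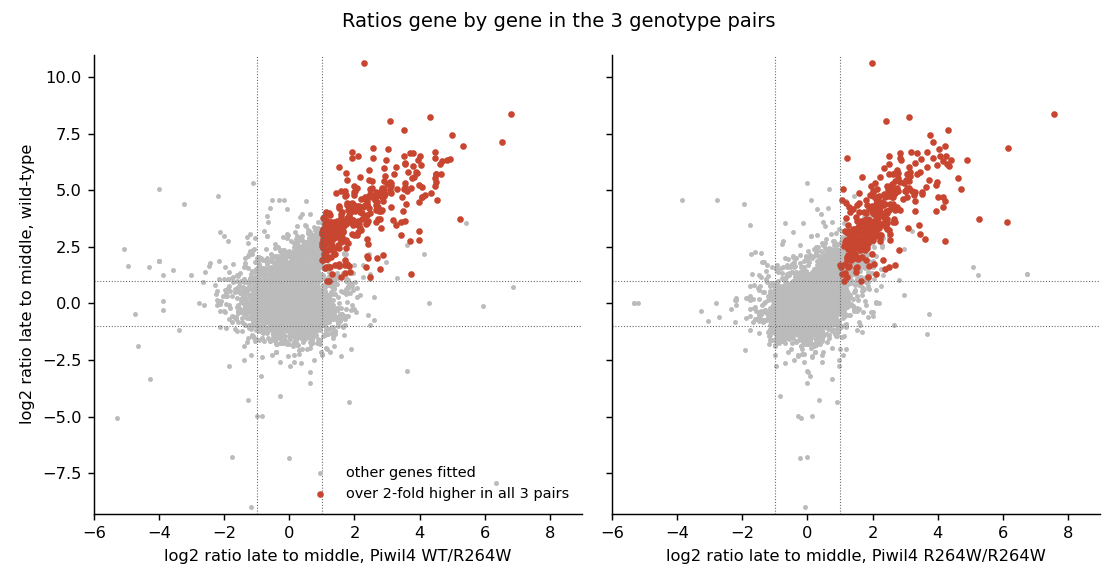
Each point is 1 of 15612 genes, with its log2 ratio of late to middle CPM (prior count of 1) in the wild-type pair on the vertical axis and in the Piwil4 WT/R264W (left) or Piwil4 R264W/R264W (right) pair on the horizontal axis. Dotted lines mark 2-fold, and the 326 genes in red lie beyond 2-fold in all 3 pairs, mostly with larger ratios in the wild-type pair.

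The 3 pairs share no library. Across the 15612 genes the log2 ratios of the wild-type and Piwil4 R264W/R264W pairs had a Pearson coefficient of 0.69 and a Spearman coefficient of 0.49. The Piwil4 WT/R264W pair had 0.40 and -0.05 with the wild-type pair, and 0.33 and -0.04 with the Piwil4 R264W/R264W pair. Genes are not independent replicates, and the points share libraries, so these values only describe the scatter. For the Piwil4 WT/R264W pair the ranks of most genes thus bore no relation to those of the others, while the genes with large ratios did overlap.

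The genes of nuclear condensation stood out by size. Of 13 fitted genes on this list, 9 were higher (69.2%, against 2.09% of all genes fitted), and the median log2 fold change was 2.78, against 0.00 over all genes fitted. The median log2 ratio was 4.27, 2.05 and 2.18 in the 3 pairs. Although the score step of the Piwil4 WT/R264W pair was less than that of the Piwil4 R264W/R264W pair, the ratios of this list were nearly equal in both. This list was not used to rank the testes, but its genes are spermatid genes of the same libraries.

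Prm1 encodes protamine 1, which packs the DNA of sperm. It had 0.294, 0.335 and 1.83 CPM in the middle testes and 41.8, 15.4 and 34.9 CPM in the late testes, so the lowest late testis lay above every middle testis. Its fitted log2 fold change was 5.30 (standard error 0.46, n = 3 pairs). Prm2, the other main protamine, had 0.784, 1.79 and 2.36 CPM in middle and 59.6, 21.5 and 47.3 CPM in late testes, again without overlap. The log2 fold change was 4.63 (standard error 0.44). The early testes had at most 0.268 CPM of Prm1 and at most 0.626 CPM of Prm2.

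The transition proteins come before protamines in the exchange of histones. Tnp2 had 1.18, 2.79 and 5.69 CPM in middle and 112, 45.3 and 95.5 CPM in late testes, a log2 fold change of 4.74 (standard error 0.47). Tnp1 had 0.882, 1.51 and 2.07 CPM in middle and 28.3, 11.3 and 24.2 CPM in late testes, a log2 fold change of 3.78 (standard error 0.37). For both genes the late Piwil4 WT/R264W testis, which also had the lowest score of the late testes, had the lowest late level, and it still exceeded all middle testes. Prm3, which lies between Prm2 and Tnp2 on chromosome 16, was also higher, with 0.0980, 0.335 and 0.814 CPM in middle and 2.61, 1.39 and 2.23 CPM in late testes.

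Promoters of some of these genes are shown because many spermatid promoters are known to be bound by CREM. Whether CREM acted on the genes shown was not tested. RefSeq sequences (GRCm38.p6) run from 250 bases before to 50 bases after the transcription start, 5′ to 3′ along the gene, and capitals mark each match to TGANNTCA, the cAMP response element with any bases in its centre. Prm1 (chr16:10796774-10797073, minus strand), Tnp1 (chr1:73015850-73016149, minus strand) and Ccin (chr4:43983254-43983553, plus strand) held a match. Prm2 (chr16:10792056-10792355, minus strand) and Tnp2 (chr16:10788606-10788905, minus strand) held none in this window, nor did Prss37, Fam71b and Spem1, which are among the genes with the largest ratios and are not printed. Gm14151, also among those genes, and Prm3 did hold a match, TGACCTCA at base -76 and TGAGGTCA at base -60. They are not printed either.
Prm1: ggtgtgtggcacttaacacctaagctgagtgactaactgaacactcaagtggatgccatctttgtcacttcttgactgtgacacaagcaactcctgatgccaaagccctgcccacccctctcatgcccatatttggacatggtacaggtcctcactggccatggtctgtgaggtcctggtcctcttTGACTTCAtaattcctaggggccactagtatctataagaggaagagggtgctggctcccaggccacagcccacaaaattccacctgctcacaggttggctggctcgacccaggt
Tnp1: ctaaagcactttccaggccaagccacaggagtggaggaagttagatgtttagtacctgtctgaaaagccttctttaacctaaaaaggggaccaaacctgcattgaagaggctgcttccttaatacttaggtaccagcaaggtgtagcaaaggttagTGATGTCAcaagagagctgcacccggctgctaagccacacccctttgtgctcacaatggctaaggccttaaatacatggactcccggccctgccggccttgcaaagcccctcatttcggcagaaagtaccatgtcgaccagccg
Ccin: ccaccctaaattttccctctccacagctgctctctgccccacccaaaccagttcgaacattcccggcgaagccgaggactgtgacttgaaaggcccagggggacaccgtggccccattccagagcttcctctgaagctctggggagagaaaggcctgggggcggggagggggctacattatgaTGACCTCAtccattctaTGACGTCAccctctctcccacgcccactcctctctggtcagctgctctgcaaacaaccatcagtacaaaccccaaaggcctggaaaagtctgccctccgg
Prm2: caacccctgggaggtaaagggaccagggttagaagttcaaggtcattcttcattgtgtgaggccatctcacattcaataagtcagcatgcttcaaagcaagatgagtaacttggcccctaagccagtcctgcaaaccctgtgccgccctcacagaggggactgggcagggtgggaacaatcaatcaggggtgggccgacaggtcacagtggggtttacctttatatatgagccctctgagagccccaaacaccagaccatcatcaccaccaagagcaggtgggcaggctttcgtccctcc
Tnp2: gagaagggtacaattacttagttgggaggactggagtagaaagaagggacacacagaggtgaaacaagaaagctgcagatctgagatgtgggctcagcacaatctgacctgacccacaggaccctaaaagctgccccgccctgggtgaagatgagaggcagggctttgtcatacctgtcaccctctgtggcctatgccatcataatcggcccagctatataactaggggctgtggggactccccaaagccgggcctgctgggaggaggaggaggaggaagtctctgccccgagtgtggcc
In Prm1 the match was TGACTTCA and began at base -64 from the start, and in Tnp1 it was TGATGTCA at base -94. Ccin, which encodes calicin of the sperm head and was chosen after its values were seen, held TGACCTCA at -67 and the full element TGACGTCA at -50. Ccin had 2.45, 5.86 and 9.15 CPM in middle and 64.8, 29.6 and 55.4 CPM in late testes, with no overlap.

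Of the 326 higher genes, 256 were matched by symbol to at least 1 RefSeq promoter, and 99 of these (38.7%) held TGANNTCA, against 12.9% of 11990 other fitted genes and 15.9% of all genes of the promoter table. Shares count each gene symbol once, and copies of a gene family with like promoters were not merged. The pattern TGANNTCA reads the same on both strands, and this form of it was added after the shares of the other motifs were known. The full element TGACGTCA, which is 1 of its forms, was in 0.391% of the higher genes (Ccin alone), against 3.30% of the other fitted genes. The short element TGACG, searched on both strands and also part of the full element, was in 14.1% against 32.3%. Part of the X-box of RFX factors, GTTGCC, searched on both strands, was in 18.8% against 15.4%. Forms without a central CG pair were thus the more common ones among higher genes, and forms with one the less common.

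These promoters were also poor in CG pairs, which bears on any motif that contains one. The median number of CG pairs in 300 bases was 3 among higher genes and 19 among the other fitted genes. Among promoters with at most 5 CG pairs, TGANNTCA was found for 42.6% of 188 higher genes and 24% of 1614 other fitted genes, and among those with more, for 27.9% of 68 and 11.2% of 10376. Of 126 matches in the promoters of higher genes, 79.4% began within 100 bases before the start (median position -66), against 51.0% of 1812 matches in the others. A match is a description of letters, and binding was not measured.

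The histone variants and remodelers of the same list fell into 2 kinds. H1f7, a linker histone of condensing spermatids, had 2.65, 7.31 and 8.46 CPM in middle and 65.8, 37.6 and 65.3 CPM in late testes (log2 fold change 3.25, standard error 0.39). H1f9, another linker histone of spermatids, rose by 1.77 on the log2 scale (standard error 0.32) and was already at 14.5 to 33.6 CPM in the middle testes. The core histone variants H2bl1 and H2al2a were higher too, from 0.392 to 1.22 and 0.147 to 0.651 CPM in middle to 5.02 to 8.47 and 3.81 to 7.77 CPM in late testes. Chd5, a chromatin remodeler of spermatids, had 40.8, 68.0 and 72.6 CPM in middle and 233, 124 and 195 CPM in late testes, but its fold in the Piwil4 WT/R264W pair was 1.82. Psme4, a proteasome activator of histone removal, and the ubiquitin ligase gene Rnf8 had log2 fold changes of 0.28 (standard error 0.12) and -0.18 (standard error 0.13). H1f10 had 0.05, and H2ab1 had a count of 0 in all 9 libraries.

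**Figure D2:**
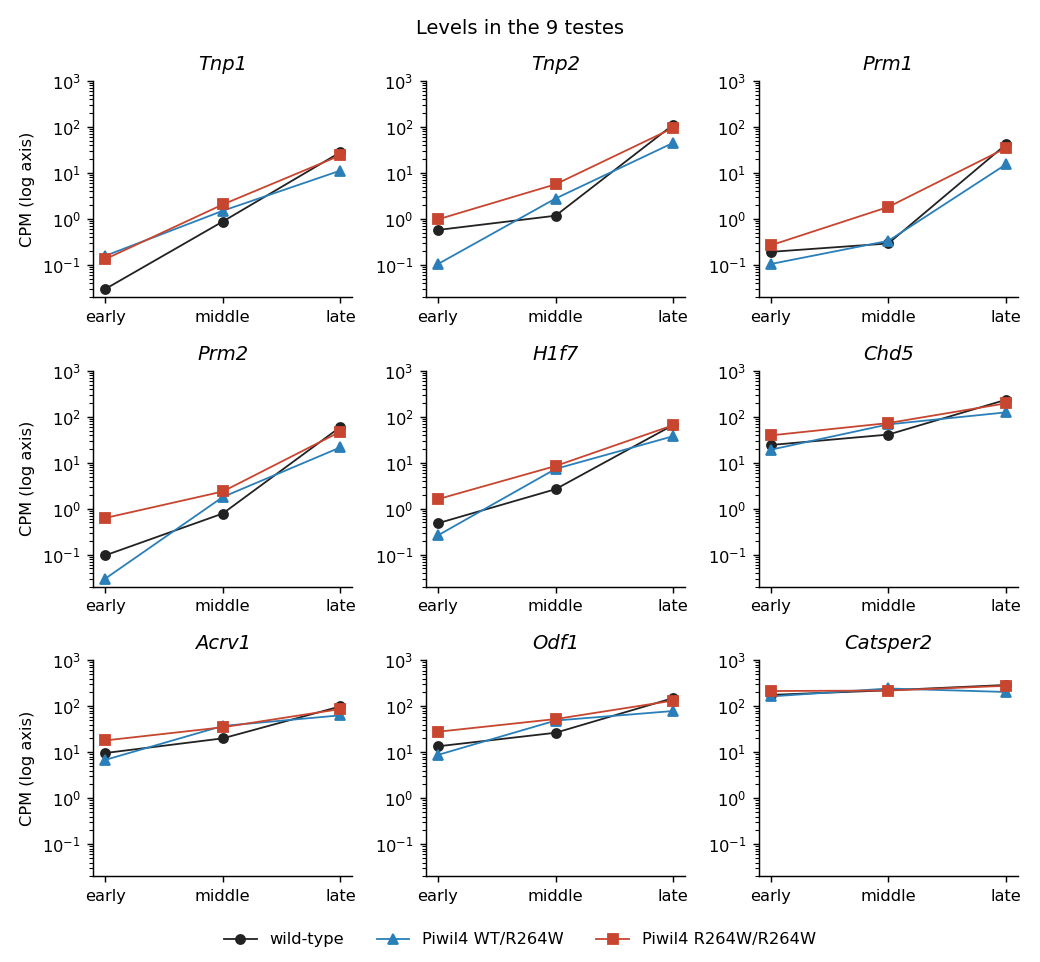
Levels in CPM (log axis) of 9 genes in the early, middle and late testis of each genotype, 1 point per testis, with levels of 0 drawn at 0.03 CPM. Tnp1, Tnp2, Prm1, Prm2 and H1f7 start at 8.46 CPM or less in every middle testis and reach at least 11.3 CPM in every late one, Chd5, Acrv1 and Odf1 start from higher levels, and Catsper2 is nearly level.

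The round spermatid genes chose the testes, so their values are a description and support nothing. Their median log2 fold change was 1.45, with pair medians of 2.39, 0.58 and 1.34, and only 3 of 19 (Tssk6, Sun5 and Txndc2) passed 2-fold in all 3 pairs. Txndc2, a thioredoxin of the sperm tail, had 3.14, 6.64 and 12.2 CPM in middle and 84.8, 42.9 and 65.3 CPM in late testes. Acrv1, an acrosomal protein gene, had 20.1, 37.4 and 35.0 CPM in middle and 99.6, 63.6 and 87.2 CPM in late testes. Zpbp, Zpbp2 and Acrbp, also of the acrosome, were at 195 to 321 CPM in the middle testes and at 198 to 371 CPM in the late testes, and their log2 fold changes were 0.20, 0.12 and 0.15. The list thus joined genes that were near their late level by the middle testes with genes that were not.

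The testis-specific serine kinases phosphorylate proteins of the forming sperm. All 6 had a log2 fold change of at least 1.15 and a positive ratio in each pair, with a median of 1.73. Tssk6, needed for chromatin condensation, was higher, with 1.86, 3.18 and 3.09 CPM in middle and 23.5, 9.94 and 20 CPM in late testes. The other kinases, Tssk1 to Tssk5, did not pass 2-fold in the Piwil4 WT/R264W pair. Tssk1, Tssk2 and Tssk6 were among the genes that ranked the testes.

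Genes of the fibrous sheath and outer dense fibers, which sheathe the flagellum, had a median log2 fold change of 1.56, with pair medians of 2.56, 0.72 and 1.39. Of 18 genes, 3 were higher (16.7%, against 2.09% of all genes fitted) and 10 passed 1.5-fold in all 3 pairs (3.90% of all genes fitted did). Akap4, the main protein of the fibrous sheath, had 43.2, 93.3 and 98.7 CPM in middle and 383, 187 and 313 CPM in late testes. Its ratio in the Piwil4 WT/R264W pair was just over 2-fold, and its partner Akap3 had 89.5, 164 and 153 CPM against 436, 245 and 387 CPM, under 2-fold in that pair. Odf3 was higher with a log2 fold change of 2.16 (standard error 0.37). Spem1, which acts in the removal of spermatid cytoplasm, had 0.245, 0.447 and 1.14 CPM in middle and 16.5, 6.14 and 12.9 CPM in late testes, with no overlap and a log2 fold change of 4.26 (standard error 0.45).

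Other members of this list were already abundant. Odf2 had 1359, 1558 and 1426 CPM in middle and 2019, 1417 and 1957 CPM in late testes, so the groups overlapped. The log2 fold changes of Odf2, Odf4, Ropn1l and Spa17 were 0.30, 0.19, 0.19 and 0.35. Odf1 and Smcp, by contrast, had log2 fold changes of 1.5 and 1.74 without passing 2-fold in the Piwil4 WT/R264W pair.

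The CatSper channel, which admits calcium into the sperm tail, held genes with larger and with smaller differences within a single complex. None of its 14 genes passed 2-fold in all 3 pairs (0 higher), and the median log2 fold change was 0.16. The pore subunits Catsper1, Catsper3 and Catsper4, the regulator Efcab9 and Tmem249 had log2 fold changes of 1.48, 1.64, 1.45, 1.3 and 1.65, with positive ratios in every pair. The pore subunit Catsper2 had 0.16 and the other 8 genes lay between -0.04 and 0.17. Catsper1 had 11.7, 22.6 and 21.6 CPM in middle and 65.1, 33.5 and 57.1 CPM in late testes, which do not overlap. Catsper2 had 223, 244 and 220 CPM in middle and 291, 205 and 279 CPM in late testes, which do. This split was described after the values were seen. Catsper3 and Catsper4 were among the genes that ranked the testes, so their values support nothing.

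**Figure D3:**
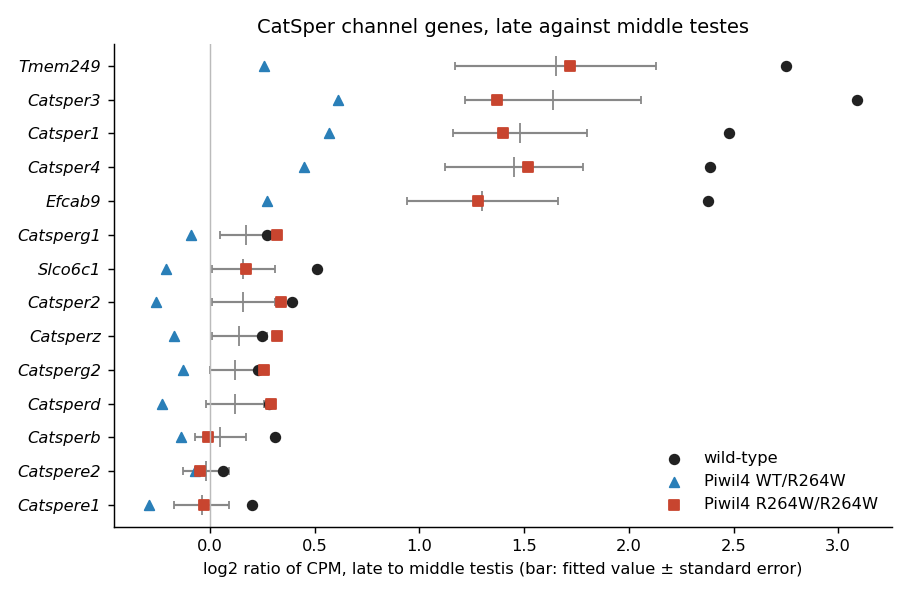
The log2 ratio of late to middle CPM (horizontal axis) of the 14 CatSper channel genes (vertical axis) in the 3 genotype pairs, with the fitted log2 fold change and its standard error in grey. Tmem249, Catsper3, Catsper1, Catsper4 and Efcab9 lie to the right, while the other 9 genes lie near 0 in each pair. Catsper3 and Catsper4 were among the genes that ranked the testes.

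Among 24 genes of the acrosome and of fertilization, 4 were higher (16.7%, against 2.09% of all genes fitted) and the median log2 fold change was 1.12, with pair medians of 2.08, 0.23 and 1.01. Hyal5, a hyaluronidase of sperm, had 7.30, 17.3 and 18.7 CPM in middle and 67.5, 40.2 and 51.5 CPM in late testes. Izumo2, of the family of the sperm fusion protein, had 2.11, 4.91 and 4.43 CPM against 17.5, 10.3 and 14.6 CPM. Prss55, a sperm protease, had 0.490, 0.893 and 2.03 CPM against 15.4, 6.85 and 10.5 CPM, a log2 fold change of 3.28 (standard error 0.46). The fourth was 4930451I11Rik, which encodes the fusion factor FIMP, at 0.490 to 0.936 CPM in middle and 2.28 to 3.07 CPM in late testes. Acr, the gene of the protease acrosin, had 110, 118 and 103 CPM in middle and 153, 106 and 148 CPM in late testes, which overlap. Tex101 had 393, 460 and 405 CPM against 309, 403 and 350 CPM and a log2 fold change of -0.25.

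The axoneme, the motile core of the flagellum, had no gene (0 of 26) over 2-fold in all 3 pairs and a median log2 fold change of 0.20. Its largest value was 1.23 for Tekt5, a tektin of flagellar microtubules, with 18.3, 17.4 and 18.2 CPM in middle and 51.1, 29.7 and 48.7 CPM in late testes. Dnah1, a heavy chain of inner arm dynein, had 0.03. The spermatogenic isozymes of glycolysis, which supply energy along the tail, had a median of 0.36 and no gene of 13 over 2-fold in all 3 pairs (0 higher). Gapdhs and Aldoart1 had log2 fold changes of 1.80 and 1.28, whereas Ldhc and Pgk2, first made in meiosis, had 0.11 and 0.45.

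Of 20 transcription regulators of meiosis and spermatids, 2 were higher (10%, against 2.09% of all genes fitted). Fhl5, which encodes the CREM coactivator ACT, had 3.67, 10.2 and 10.5 CPM in middle and 57.1, 30.9 and 46.4 CPM in late testes. Its log2 fold change was 2.51 (standard error 0.41). Klf17, a zinc finger factor, had 0.539, 1.40 and 2.81 CPM in middle and 15.4, 7.52 and 12.8 CPM in late testes (log2 fold change 2.98, standard error 0.47). Crem itself had 131, 163 and 148 CPM against 202, 153 and 189 CPM, with overlap and a log2 fold change of 0.29. Sox5 and Spz1 had 1.42 and 1.68, and Rfx2, Brdt and Mybl1 had 0.09, 0.10 and -0.12.

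Lists of earlier germ cells had medians near 0, and their pairs did not share a direction. The median log2 fold change was 0.07 for RNA storage and translation genes, 0.04 for the meiotic division, 0.03 for pachytene and diplotene spermatocytes, -0.01 for early meiotic prophase, -0.04 for differentiating and -0.09 for undifferentiated spermatogonia. The pair medians were -0.31, 0.50 and -0.17 for undifferentiated and -0.28, 0.26 and -0.05 for differentiating spermatogonia, and those of the other 4 lists lay between -0.23 and 0.17. No gene fitted on these 6 lists was higher or lower (0 each). Piwil4, on the list of undifferentiated spermatogonia, had 1.67, 1.12 and 1.18 CPM in middle and 1.77, 2.06 and 1.03 CPM in late testes (log2 fold change 0.26, standard error 0.35). Its counts do not show which allele was read. Afm, which encodes afamin, had 1.62, 1.90 and 5.49 CPM against 2.23, 1.79 and 4.23 CPM, a log2 fold change of -0.02 (standard error 0.28), and Yipf7 stayed at 0.245, 0.335 and 0.854 CPM against 0.372, 0.269 and 1.60 CPM, with too few counts to be fitted.

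**Figure D4:**
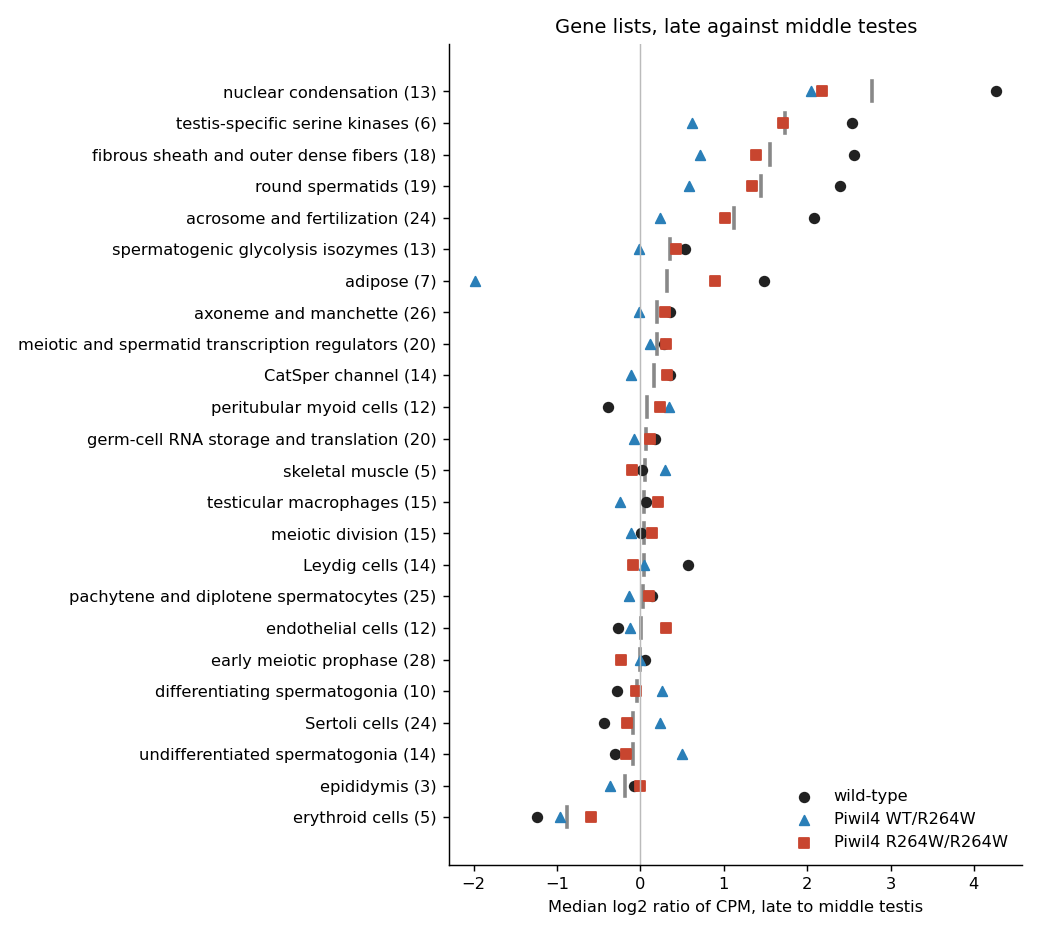
Median log2 ratio of late to middle CPM over the fitted genes of each list (number of genes in brackets), 1 symbol per genotype pair, with a grey bar at the median of the fitted log2 fold changes. Nuclear condensation lies farthest to the right, lists of meiotic and earlier germ cells lie near 0, and the adipose list lies on both sides of 0.

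The steps from early to middle and from middle to late share the middle testis, so they are given side by side only. Nuclear condensation genes had median steps of 0.75, 2.64 and 1.36 from early to middle and of 4.27, 2.05 and 2.18 from middle to late. Fibrous sheath genes had 0.92, 2.52 and 0.80, then 2.56, 0.72 and 1.39. Acrosome genes had 0.56, 2.15 and 0.48, then 2.08, 0.23 and 1.01. In the Piwil4 WT/R264W testes the larger step of each of these lists came before the middle testis, and nuclear condensation genes had a step of over 2 on the log2 scale on either side of it. In the other genotypes each of these lists had its larger step after the middle testis.

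Where the 326 genes came on is shown by their level in all 9 testes. In the early testes 92, 63 and 130 of them were at 1 CPM or more, in the middle testes 135, 171 and 195, and in the late testes 309, 285 and 308. They took 0.0397%, 0.0302% and 0.0734% of all counts in early, 0.0699%, 0.130% and 0.160% in middle and 0.700%, 0.396% and 0.585% in late testes. In 79 of them no early testis had more than 3 counts, and in 17 no middle testis did, so their folds rest on few counts in the denominator. The middle Piwil4 WT/R264W testis had a higher score than the middle Piwil4 R264W/R264W testis (5.0 against 4.92) but fewer of these genes at 1 CPM (171 against 195). The 326 genes were chosen for being more than 2-fold lower in each middle testis than in its late testis. That choice bears on the counts in middle and late testes, so they describe the chosen genes and support nothing.

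**Figure D5:**
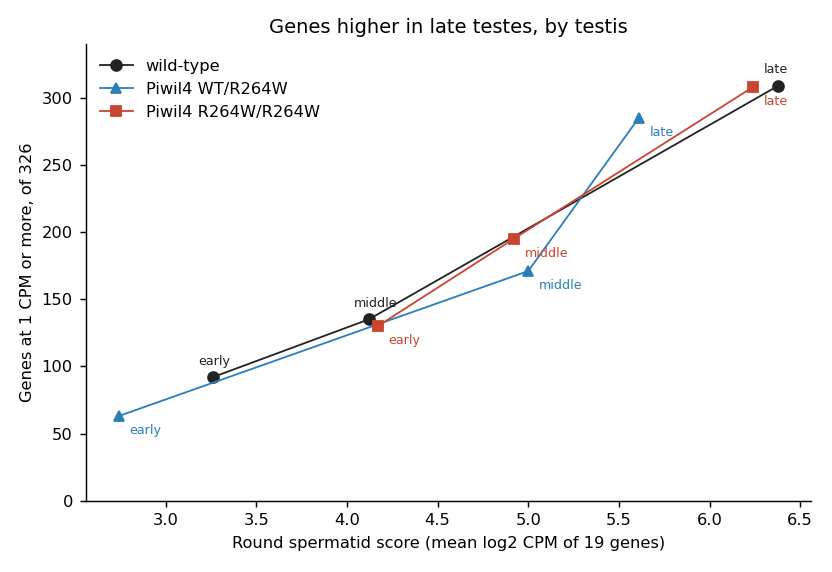
Number of the 326 higher genes at 1 CPM or more (vertical axis) against the round spermatid score (horizontal axis) in the 9 testes, joined within each genotype. The number runs from 63 in the early Piwil4 WT/R264W testis to 309 in the late wild-type testis, and late and middle testes were contrasted to choose these genes.

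The 10 genes with a mean of at least 5 CPM whose smallest ratio of the 3 pairs was largest were Gm14151, Prm1, Fam71b, Tnp2, Prss37, Gm49361, Fam71a, Spata31d1b, Prm2 and Spem1. Gm14151 had a count of 0 in all early and all middle testes and 16.1, 5.37 and 9.09 CPM in late testes, and was at least 69.9-fold higher when 3 counts are allowed in each middle library. Fam71b had 0.294, 0.335 and 0.976 CPM in middle and 27.2, 9.90 and 18.4 CPM in late testes (log2 fold change 5.05, standard error 0.40). Its relative Fam71a rose by 4.78 on the log2 scale (standard error 0.41). Prss37, which encodes a protease-like protein needed for sperm migration in the female tract, had 0.343, 0.279 and 0.773 CPM in middle and 16.1, 7.30 and 13 CPM in late testes (log2 fold change 4.68, standard error 0.33). Gm49361 overlaps Xpo4 and Lats2 and Spata31d1b belongs to a multicopy family, so that shared reads leave both uncertain. No lower gene reached 5 CPM.

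Of the 326, 321 were protein-coding and 24 were on a list used here. Gene families, chosen after the higher genes were seen, held different shares of higher genes, against 2.09% of all genes fitted. All 9 fitted H2A.L histone variants (H2al1, H2al2 and H2al3 genes), which enter nucleosomes of condensing spermatids, were higher, with a median log2 fold change of 3.38. All 6 Cypt genes, 3 of 3 Smok3 kinases and 3 of 3 Dsg1 desmogleins were higher, as were 4 of 5 Spata31 genes, 4 of 7 Fam71 genes and 3 of 4 Iqcf genes. Of 31 Adam genes only Adam4, Adam6a, Adam6b and Adam29 were, and of 22 Btbd35f genes 4 were. Of 52 Trim genes 4 were higher (median log2 fold change 0.00), of 23 Prss genes 3 (0.11), of 9 Actrt and Actl genes 3 (1.34) and of 7 Samt genes 3 (1.38). Near-identical copies in the H2al1, Cypt, Smok3, Spata31d1 and Btbd35f families can share reads, so the values of single copies are uncertain.

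On the X chromosome 34 of 718 fitted genes were higher (4.74%), against 286 of 14746 autosomal genes (1.94%). Of these 34, 8 were H2A.L variants. The median log2 fold change over X-linked genes was 0.02, with pair medians of -0.09, 0.28 and -0.07, so the pairs did not share a direction. On the Y chromosome 3 of 106 fitted genes (2.83%) were higher, and the median was 0.57, with pair medians of 1.24, 0.12 and 0.48. Many Y-linked genes expressed in testis are multicopy, and their counts are uncertain for the same reason.

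The lower genes were few and mostly at low levels. Uba7, which encodes the enzyme that activates the interferon-induced modifier ISG15, had 1.18, 1.28 and 0.814 CPM in middle and 0.512, 0.537 and 0.343 CPM in late testes, with no overlap and a log2 fold change of -1.22 (standard error 0.40). Its late counts were 11, 12 and 6 and it overlaps Gm20661. The 25 genes lower by 1.5-fold in all 3 pairs included the globin genes Hba-a1, Hbb-bs and Hbb-bt. Hbb-bs had 169, 90.1 and 55.7 CPM in middle and 71.3, 46.0 and 37.1 CPM in late testes, a log2 fold change of -0.94 (standard error 0.15), but the late wild-type testis lay above the middle Piwil4 R264W/R264W testis. The other genes named here, the early response gene Fos and the interferon-induced Ifit3, were chosen after their values were seen and had log2 fold changes of -1.13 (standard error 0.36) and -1.08 (standard error 0.33).

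Markers of other cells were examined over whole lists. The 24 Sertoli cell genes summed to 3339, 3125 and 3057 CPM in middle and 2521, 3750 and 2843 CPM in late testes, with pair medians of -0.44, 0.24 and -0.16 and 0 genes higher. The erythroid list had a median log2 fold change of -0.88 and summed to 360, 199 and 118 CPM in middle and 157, 103 and 82.2 CPM in late testes. Its part in other results was not tested. The peritubular myoid, macrophage and epididymis lists had 1 higher gene each, of 12, 15 and 3 fitted genes, against 2.09% of all genes fitted. Their median log2 fold changes were 0.08, 0.04 and -0.18. The pair medians were -0.39, 0.34 and 0.23 for the myoid and 0.07, -0.25 and 0.21 for the macrophage list. Of the 15 macrophage genes, 2 went up and 2 went down in all 3 pairs, against 2408 up and 1956 down of the 15612 genes fitted. Actg2 had 7.05, 11.9 and 12.7 CPM in middle and 52.9, 26.1 and 43.3 CPM in late testes, while its fellow smooth muscle gene Acta2 had 76.2, 72.4 and 80.2 CPM against 60.1, 118 and 98.1 CPM. Aif1 had 3.48, 6.70 and 9.36 CPM against 37.1, 17.7 and 27.2 CPM, while the macrophage receptor gene Csf1r had 11.2, 13.5 and 11.8 CPM against 14.3, 14.6 and 14.5 CPM. Cst8, a cystatin known from epididymis and testis, had 1.37, 3.01 and 5.29 CPM against 23, 11.1 and 17.8 CPM, while Lcn8, Lcn9 and Gpx5 of the epididymis were at 0 in every library. The 3 fitted genes of the epididymis list had log2 fold changes from -3.27 to 2.47, so they did not share a direction. They summed to 12.8, 14.2 and 10.6 CPM in middle and 28.8, 17.6 and 22.9 CPM in late testes. In the early Piwil4 R264W/R264W testis their sum was 47.1 CPM.

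Leydig cell genes had a median log2 fold change of 0.04 but differed between pairs, with pair medians of 0.57, 0.04 and -0.09. Cyp17a1, an enzyme of androgen synthesis, had 4.56, 5.81 and 96.3 CPM in middle and 53.6, 56.7 and 87.8 CPM in late testes. It was thus higher in the late testis of the wild-type and Piwil4 WT/R264W pairs and not in that of the Piwil4 R264W/R264W pair. Other members differed within the Piwil4 WT/R264W pair, where Star had a log2 ratio of 1.98. Insl3, Hsd3b6 and Akr1c14 had -2.15, -1.49 and -0.81 in that pair. Cyp11a1, which starts steroid synthesis, had 21.5, 31.3 and 87.7 CPM against 70.6, 51.7 and 89 CPM. The 14 genes summed to 382, 437 and 657 CPM in middle and 600, 485 and 632 CPM in late testes.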

How the data were processed

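Total RNA of mouse testes was sequenced in 9 mRNA libraries. The submitters' processing notes name fastp (0.18.0), StringTie (1.3.1), DESeq2 and the build mm39. The aligner, and whether counting used strand, are not given in the sources used here, so reads of overlapping and antisense genes may be mixed. The table deposited by the authors holds an FPKM value and an estimated count per gene and testis, and 89.2% of the estimated counts were whole. Estimated counts were rounded and scaled by TMM over 9 libraries. Genes were filtered with filterByExpr over 6 libraries and fitted with edgeR (4.0.16, R 4.3.3) with genotype as a block, a fit also tested on simulated data. Ratios within genotypes used a prior count of 1. Standard errors come from the quasi-likelihood fit. A count of 0 leaves up to 3 counts possible (0.122 to 0.172 CPM), which covers counting error only. Nothing says whether each library was 1 mouse or a pool, so the spread is that between libraries. Names, chromosomes and overlaps are from GENCODE M21 (GRCm38), which holds 22283 of the identifiers. Its build differs from mm39, so no gene coordinates are given.

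The testes, gene lists and comparisons were chosen with earlier results of these data known. Named genes are list members, the 10 higher and 10 lower genes with a mean of at least 5 CPM over the 6 libraries whose smallest ratio of the 3 pairs was largest in size (no lower gene qualified), and Piwil4, Afm and Yipf7. Any other gene was picked once values were known. The alternatives tried were DESeq2 (1.42.0) and its size factors, plain library size, scaling to Sertoli cell genes, other filters, prior counts, call rules and FPKM scales, and each pair left out.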

Additional observations from a re-analysis of the deposited data

Results flagged for a closer look

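Of 323 lists and list genes with at least 5 CPM, 9 went over 1.5-fold up in at least 1 genotype pair and over 1.5-fold down in another. These differences between pairs rest on 1 library a side and were not tested. The adipose list had median log2 ratios of 1.48 in the wild-type, -1.98 in the Piwil4 WT/R264W and 0.89 in the Piwil4 R264W/R264W pair, a range of 3.45, and its 7 fitted genes summed to between 5.33 and 28.3 CPM per library. Of the Leydig cell genes, Star, which moves cholesterol into mitochondria, had log2 ratios of 1.70, 1.98 and -1.23 in the same order (range 3.20), Insl3, a Leydig cell hormone, had 1.10, -2.15 and 0.76 (range 3.25), Hsd3b6 had 0.97, -1.49 and 0.16 (range 2.46) and Akr1c14 had 0.77, -0.81 and -0.04 (range 1.57). Of the smooth muscle genes of peritubular cells, Myh11 had -0.60, 1.31 and 0.33 (range 1.91) and Cnn1 had -0.62, 1.21 and 0.56 (range 1.83). Lyz2 of macrophages had 0.64, -0.77 and -0.04 (range 1.41), and Cdh5 of endothelium had -0.63, 0.83 and 0.31 (range 1.46). The Piwil4 WT/R264W pair had the lowest of the 3 values in 5 of the 9.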

How the results depend on the processing

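The number of higher genes was 326 and lay between 270 and 409 with DESeq2 size factors, plain library size, Sertoli cell scaling, no filter, a prior count of 5, log2(FPKM + 0.1), edgeR's adjusted p and middle counts under 3 set to 3. It was 171 with at least 10 counts in all 6 libraries, 204 with log2(FPKM + 1), 651 with edgeR without genotype block, 587 with DESeq2, 128 at 4-fold and 609 at 1.5-fold, and it ran from 340 to 840 with a pair left out, the most without the Piwil4 WT/R264W pair. Like totals need not hold the same genes. Of the 329 genes called with edgeR's adjusted p, 234 were among the 326. The number of lower genes was 1, and it was 3 with plain library size, 26 without a filter, 25 at 1.5-fold, 2 with middle counts set to 3, 13 to 30 with a pair left out, and 0 with Sertoli cell scaling, at least 10 counts, a prior count of 5, log2(FPKM + 1), edgeR without genotype block and 4-fold. Sertoli cell scaling moved the median log2 fold change of all genes fitted to 0.12, plain library size to -0.07 and log2(FPKM + 0.1) to -0.06. Of 192 list medians recomputed, 1 moved by more than the SD between pairs, the transcription regulators with Sertoli cell scaling (0.32), but that SD was wide. Without the wild-type pair the median was 2.16 for nuclear condensation (2.78 with all pairs), 0.99 for round spermatids (1.45), 1.07 for the fibrous sheath (1.56) and 0.66 for the acrosome (1.12), and without the Piwil4 WT/R264W pair it was 3.12, 1.94, 1.94 and 1.53. The adipose median (0.32) was 1.18 without the Piwil4 WT/R264W and -0.06 without the Piwil4 R264W/R264W pair. All 9 libraries kept their rank under 3 other spermatid lists and under FPKM. No paired analysis was possible because late libraries were numbered 1, 1 and 3 and middle libraries 2, 2 and 2, so replicate numbers pair no libraries, and the pairs used throughout are of the same genotype. The size of every step depends on 1 late and 1 middle library per genotype.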
